A study of Mus musculus with 8 samples.

Results

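Adipocyte marker genes in dissected mouse hearts are described here as a measure of fat that could have come along with the muscle. The set holds 10 genes, Adipoq, Cfd, Retn, Lep, Plin1, Cidec, Ucp1, Lipe, Cidea and Pck1, chosen by name as genes that fat cells are known for, and all 10 were among the 17190 genes listed in the count table. The hearts came from 4 Gpihbp1-/- mice, numbered 1, 2, 3 and 4, and 4 wild-type (WT) mice, numbered 2, 4, 5 and 6. All 8 were males on standard rodent chow, and the labels give neither an age, a strain nor the knockout allele. Gpihbp1 is the endothelial protein that carries lipoprotein lipase to the capillary lumen, and the stated purpose was to learn what its loss does to the heart. Polyadenylated RNA was sequenced, and total counts per library ran from 9065561 to 13492971.

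Adipocytes store triglyceride in a large lipid droplet, release it as fatty acid by lipolysis, and secrete hormones such as adiponectin, leptin and, in mice, resistin. White adipocytes hold 1 large droplet, while brown adipocytes hold many small ones and burn fatty acid through the uncoupling protein Ucp1. Mouse hearts carry fat outside the myocardium, in the pericardial sac and around the great vessels, so that a dissected heart can bring some of it along. Cardiomyocytes also hold small lipid droplets and run lipolysis themselves, and several genes used as adipocyte markers are known to be active in them.

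In these hearts the markers fell into 2 unequal sets. Lipe, hormone-sensitive lipase, and Cidea, a protein of the lipid droplet surface best known from brown fat, were read in all 8 libraries. They supplied between 93.7% and 100% of the summed TPM (the authors' abundances, scaled per transcript length and library) of the 10 markers in a library. The other 8 markers, which include the secreted hormones and the defining droplet coat of white fat, gave 54 reads over all 8 libraries, and 38 of those came from the heart of WT 6. Neither Lipe nor Cidea passed the test between the genotypes, and the other 8 were too sparse to enter it.

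The labels could be checked on the deleted gene. Gpihbp1 had 0, 0, 1 and 0 reads in Gpihbp1-/- 1, 2, 3 and 4, against 1108, 1951, 833 and 1783 reads in WT 2, 4, 5 and 6, so the groups did not overlap. Heart muscle was the main tissue in every library: 10 cardiomyocyte markers, led by Myh6, Mb and Actc1, summed to between 41290 and 99160 CPM (counts divided by library size in units of 1e6, with library size scaled by TMM) in the Gpihbp1-/- hearts and between 43010 and 121100 CPM in the WT hearts. Some libraries stood apart. Gpihbp1-/- 2 and WT 2 had 8576 and 6759 CPM of 4 fibrotic remodelling genes, Col3a1, Col1a1, Postn and Cd68, against at most 365 CPM elsewhere. WT 6 alone held the atrial myosin light chain Myl7 at 427 CPM and sarcolipin (Sln) at 356 CPM, where the other 7 libraries had at most 0.490 and 0.196 CPM. In bulk tissue, fewer cells of a type and less RNA per cell cannot be told apart.

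On the scale of TPM, which allows levels of different genes to be compared, Cidea averaged 45.6 over the 8 libraries and ranked 2205th of the 17190 listed genes. Lipe averaged 24.7 TPM and ranked 3622nd. A wide gap separated them from the next marker: Retn averaged 0.280, Cfd 0.263, Plin1 0.0700, Cidec 0.0550, Adipoq 0.0475, Ucp1 0.020, Pck1 0.0100 and Lep 0.0050 TPM. Among these 8, WT 6 held most of the reads of the leading pair, Retn and Cfd, and from Plin1 down neighbours in this order differed by 3 reads or fewer over all 8 libraries.

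**Figure D1:**
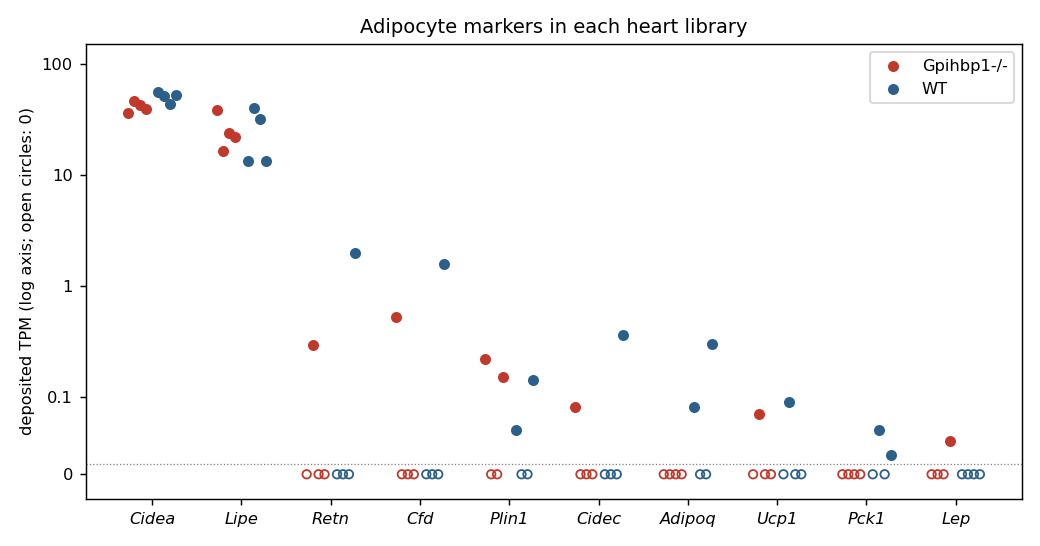
Deposited TPM of the 10 adipocyte markers (log axis) in 4 Gpihbp1-/- libraries (red, left of each pair) and 4 WT libraries (blue, right); each circle is 1 library, and open circles at the bottom are libraries with 0. Cidea and Lipe lie between 13.1 and 55.6 TPM in every library, and no other marker goes above 1.95 TPM.

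Promoter sequences show what the silent and the active markers look like at their start sites. They are from RefSeq on build GRCm38.p6, which is another build than the GRCm39 that the submitters' processing notes name, and were matched by symbol: 9 of the 10 markers, all but Cidea, had at least 1 window of 250 bases before and 50 after the start. Adipoq, Lep and Plin1 are shown as fat-restricted genes that were close to 0 here, and Lipe as a gene that was read in every heart, with its 2 listed start sites. Capitals mark matches to TTGCNNAA, a short form of the motif of C/EBP factors, which drive adipocyte differentiation together with PPARG.
Adipoq, chr16:23146286-23146585, plus strand: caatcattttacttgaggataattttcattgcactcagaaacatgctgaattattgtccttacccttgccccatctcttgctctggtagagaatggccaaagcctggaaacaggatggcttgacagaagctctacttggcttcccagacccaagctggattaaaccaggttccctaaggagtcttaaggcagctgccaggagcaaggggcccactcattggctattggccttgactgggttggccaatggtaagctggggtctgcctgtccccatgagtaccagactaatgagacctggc
Lep, chr6:29059971-29060270, plus strand: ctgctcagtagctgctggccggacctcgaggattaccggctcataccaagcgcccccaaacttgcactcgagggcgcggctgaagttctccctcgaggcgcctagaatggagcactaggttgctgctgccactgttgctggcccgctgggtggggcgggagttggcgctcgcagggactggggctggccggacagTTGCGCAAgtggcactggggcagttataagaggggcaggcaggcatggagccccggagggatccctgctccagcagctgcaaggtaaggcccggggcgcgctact
Plin1, chr7:79732727-79733026, minus strand: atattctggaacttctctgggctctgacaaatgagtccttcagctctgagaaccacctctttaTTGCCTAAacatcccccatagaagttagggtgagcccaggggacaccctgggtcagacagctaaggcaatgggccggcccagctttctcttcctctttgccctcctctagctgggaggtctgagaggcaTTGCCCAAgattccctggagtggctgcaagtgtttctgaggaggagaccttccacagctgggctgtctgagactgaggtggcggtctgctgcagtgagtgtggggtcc
Lipe, chr7:25395938-25396237, minus strand: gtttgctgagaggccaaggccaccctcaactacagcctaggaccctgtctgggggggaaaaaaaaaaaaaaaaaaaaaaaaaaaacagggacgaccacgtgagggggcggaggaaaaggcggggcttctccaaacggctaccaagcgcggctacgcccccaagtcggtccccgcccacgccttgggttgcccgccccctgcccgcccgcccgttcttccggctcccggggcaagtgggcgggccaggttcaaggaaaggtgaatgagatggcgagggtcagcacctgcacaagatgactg
Lipe, chr7:25390063-25390362, minus strand: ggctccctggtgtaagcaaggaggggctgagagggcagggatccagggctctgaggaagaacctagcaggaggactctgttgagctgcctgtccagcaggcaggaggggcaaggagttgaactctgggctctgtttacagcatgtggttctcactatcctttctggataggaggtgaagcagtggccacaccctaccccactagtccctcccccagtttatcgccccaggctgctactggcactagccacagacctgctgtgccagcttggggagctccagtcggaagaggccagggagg

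The C/EBP letters occurred in 3 of the 11 windows of the markers, those of Lep, Plin1 and 1 of the 2 start sites of Cidec, and in 10.8% of all 32851 promoter windows in the table, searched on both strands. Lep holds the palindrome TTGCGCAA, which reads the same on both strands and was counted once, while Plin1 holds 2 matches. The direct repeat bound by PPARG with RXRA, AGGTCANAGGTCA with up to 2 mismatches, was in 0 of the 11 windows and in 3.86% of all windows, and TATAAA was in 0 of the 11 and in 13.6% of all. The active gene Lipe held none of these 3 motifs in either window. A match or its absence describes these letters in these 300 bases only.

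Among the secreted proteins, Adipoq encodes adiponectin, the most abundant hormone of fat cells. It had 0 reads in all 4 Gpihbp1-/- libraries, against 1, 0, 0 and 4 reads in WT 2, 4, 5 and 6. Cfd, the complement protease adipsin, had 3, 0, 0 and 0 reads in Gpihbp1-/- 1, 2, 3 and 4, against 0, 0, 0 and 14 reads in WT 2, 4, 5 and 6. The groups overlapped at 0 for both genes, and WT 6 was the highest library for both. Retn, which encodes resistin and is restricted to adipocytes in mice, had 0, 1, 0 and 0 reads in Gpihbp1-/- 1, 2, 3 and 4, against 0, 0, 0 and 9 reads in WT 2, 4, 5 and 6. Lep, the satiety hormone of white fat, had 1 read in all, in Gpihbp1-/- 4. No WT library held a read of Lep.

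Among the droplet proteins, Plin1 encodes perilipin, the coat that controls access of lipases to the fat cell's droplet. It had 3, 0, 0 and 2 reads in Gpihbp1-/- 1, 2, 3 and 4, against 1, 0, 0 and 3 reads in WT 2, 4, 5 and 6, the only one of the 8 markers with more than 1 read in at least 2 libraries of a group. Cidec, which enlarges droplets by lipid transfer and serves the large droplet of white adipocytes, had 1, 0, 0 and 0 reads in Gpihbp1-/- 1, 2, 3 and 4, against 0, 0, 0 and 7 reads in WT 2, 4, 5 and 6. Of the metabolic markers, Ucp1 had 1 read in Gpihbp1-/- 2 and 1 in WT 4. Pck1, the enzyme that feeds glycerol synthesis in fat and glucose synthesis in liver, had 0 reads in every Gpihbp1-/- library, against 0, 1, 0 and 1 reads in WT 2, 4, 5 and 6.

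Summed over these 8 markers, the libraries held 7, 2, 0 and 3 reads in Gpihbp1-/- 1, 2, 3 and 4, against 2, 2, 0 and 38 reads in WT 2, 4, 5 and 6. A library in each group, Gpihbp1-/- 3 and WT 5, had no read of any of them, which at these depths allows up to 0.294 and 0.262 CPM by a floor of 3 counts. The highest Gpihbp1-/- library, number 1, stood at 0.619 CPM with a 95% counting interval from 0.249 to 1.28 CPM, and WT 6 at 5.34 CPM with an interval from 3.78 to 7.33 CPM. The 38 reads of WT 6 were spread over 6 of the 8 genes, 14 of Cfd, 9 of Retn, 7 of Cidec, 4 of Adipoq, 3 of Plin1 and 1 of Pck1, and Lep and Ucp1 were at 0 there. Intervals and floors cover counting error only: the reads were amplified and carry no molecular identifiers, so several can stem from 1 molecule.

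**Figure D2:**
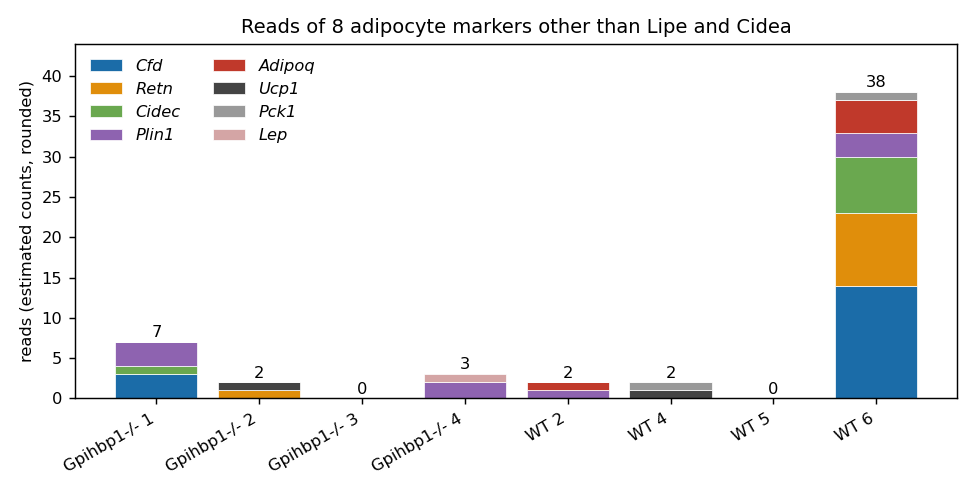
Reads (rounded estimated counts) of the 8 adipocyte markers other than Lipe and Cidea, stacked by gene, in each library, Gpihbp1-/- on the left and WT on the right; the number above a bar is its total. WT 6 holds 38 reads from 6 genes, Gpihbp1-/- 1 holds 7, and the other 6 libraries hold 0 to 3.

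Between the genotypes, 1 library set the direction of this sum. The Gpihbp1-/- hearts together had 12 reads, or 0.253 CPM (95% counting interval 0.131 to 0.443), and the WT hearts 42 reads, or 0.967 CPM (0.697 to 1.31). The ratio of Gpihbp1-/- to WT was 0.262, with a counting interval from 0.126 to 0.507. Without WT 6 the WT hearts had 4 reads, or 0.110 CPM (0.0300 to 0.282), and the ratio was 2.30, with an interval from 0.697 to 9.79. None of the 8 markers reached the count filter of the test. With no filter, edgeR's quasi-likelihood test gave each an adjusted p of 0.99995 over 17162 genes.

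In CPM, other marker lists were also high in the same library. The 7 red cell genes, led by Hba-a1, Hbb-bs and Hba-a2, summed to between 479 and 997 CPM in the Gpihbp1-/- hearts, against 12290 CPM in WT 6 and 293 to 1518 CPM in the other WT hearts. The 10 atrial genes, led by Nppa, Myl4 and Myl7, summed to 4511 CPM in Gpihbp1-/- 2, against 3177 and 5224 CPM in WT 2 and WT 6, and in Gpihbp1-/- 2 and WT 2 nearly all of it was Nppa. Myl4 stood at 974 CPM in WT 6 and at 2.45 CPM or less in the other 7 libraries. The 5 ventricular genes were led by Myl2, Myl3 and Myh7. They summed to at most 20180 CPM in the Gpihbp1-/- hearts, against 49400 CPM in WT 6. The other WT hearts had at most 19550 CPM of them. In TPM the ventricular sum was 53260 in WT 6, close to 50900 in Gpihbp1-/- 1 and 50680 in WT 4. The atrial sum in TPM was highest in Gpihbp1-/- 2, at 10810, against 5952 and 4953 in WT 2 and WT 6. The part of these tissues, and of the lower scaling factor of WT 6 (0.678, against 0.964 to 1.16 in the other 7 libraries), in the reads of the fat markers was not tested.

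Markers of further tissues were read at low levels. In CPM, WT 6 was the highest library for hepatocyte and fast skeletal muscle genes, but not in reads or TPM. Hepatocyte reads were 16 in Gpihbp1-/- 1 and 11 in WT 6 (2.87 and 1.33 TPM). Fast skeletal muscle reads were 164 in Gpihbp1-/- 2 and 83 in WT 6 (22.2 and 10.45 TPM). Thymocyte genes, led by Cd8b1, Themis and Ptcra, summed to at most 0.392 CPM in the Gpihbp1-/- hearts and 1.88 CPM in the WT hearts, with 4 of 7 listed. Hepatocyte genes, led by Ttr, Apoa1 and Apob, summed to at most 1.42 CPM in the Gpihbp1-/- hearts and 1.55 CPM in WT 6, again with 4 of 7 listed. Fast skeletal muscle genes, led by Tnni2, Tnnt3 and Mylpf, ran from 3.77 to 10.8 CPM in the Gpihbp1-/- hearts and from 2.97 to 6.18 CPM in WT 2, 4 and 5, with 11.7 CPM in WT 6. The part of these tissues in the reads of the fat markers was not tested either. Lung epithelial genes, of which 4 of 7 were listed, reached 9.98 CPM in Gpihbp1-/- 2 and 23.9 CPM in WT 2, most of it Napsa. Ager was at 1.18 CPM or less in every library and the surfactant gene Sftpb had a read in WT 4 alone.

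**Figure D3:**
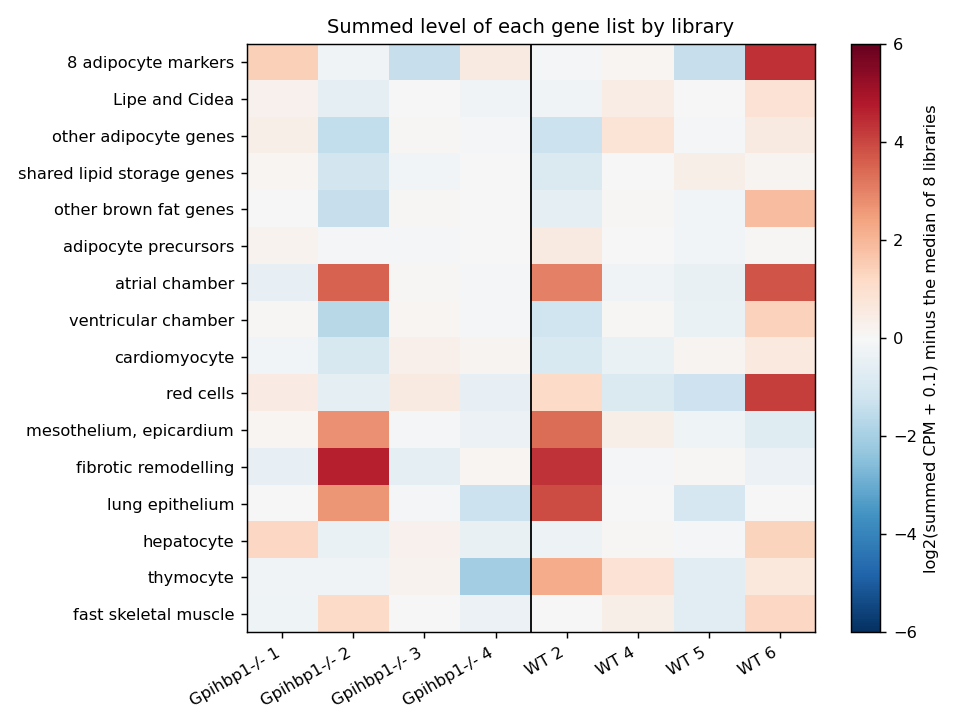
Summed CPM of each gene list as log2(CPM + 0.1) minus the median of the 8 libraries (colour, red above and blue below), with Gpihbp1-/- libraries left of the black line and WT libraries right of it. The 8 adipocyte markers and the red cell genes are 4.37 and 4.14 above the median in WT 6, while fibrotic remodelling genes are 4.67 above it in Gpihbp1-/- 2 and 4.33 above it in WT 2.

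The 2 markers with ample reads could be tested. Lipe (NCBI gene 16890) hydrolyses diacylglycerol in the middle step of lipolysis, in adipocytes and in muscle. It stood at 72.5, 28.2, 49.7 and 43.4 CPM in Gpihbp1-/- 1, 2, 3 and 4, against 28.6, 75.6, 55.6 and 60.3 CPM in WT 2, 4, 5 and 6. The groups overlapped almost throughout, and the lowest library of each group was its number 2, the heart high in fibrotic genes. The means were 48.5 ± 18.4 CPM in Gpihbp1-/- hearts and 55.0 ± 19.6 CPM in WT hearts (SD, n = 4 each). The log2 fold change was -0.18 with a standard error of 0.36 and a 95% interval from -0.98 to 0.62 (edgeR adjusted p = 0.99998).

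Cidea (NCBI gene 12683) promotes droplet growth and is abundant in brown fat. It stood at 25.1, 28.5, 32.7 and 27.3 CPM in Gpihbp1-/- 1, 2, 3 and 4, against 43.8, 35.8, 27.0 and 89.4 CPM in WT 2, 4, 5 and 6. The Gpihbp1-/- hearts lay close together, and WT 5 fell among them. The means were 28.4 ± 3.18 CPM in Gpihbp1-/- hearts and 49.0 ± 27.8 CPM in WT hearts (SD, n = 4 each). The log2 fold change was -0.78 with a standard error of 0.35 and an interval from -1.57 to 0.0043 (edgeR unadjusted p = 0.0510, adjusted p = 0.99998). Without WT 6 the WT mean was 35.5 ± 8.42 CPM (SD, n = 3) and the log2 fold change was -0.34 (edgeR adjusted p = 0.99986).

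The authors' TPM placed WT 6 differently. On that scale Cidea stood at 35.9, 46.0, 42.7 and 38.8 TPM in Gpihbp1-/- 1, 2, 3 and 4, against 55.6, 51.3, 43.0 and 51.9 TPM in WT 2, 4, 5 and 6, so that WT 6 lay among the other WT hearts and the groups overlapped only at WT 5. The means were 40.8 ± 4.42 TPM in Gpihbp1-/- hearts and 50.5 ± 5.29 TPM in WT hearts (SD, n = 4 each). An exact two-sided permutation test on log2(TPM + 1), added after the data were seen, gave a difference of -0.30 and p = 0.0571, or 0.114 adjusted over the 2 genes, where the smallest p that 70 arrangements allow is 0.0286. For Lipe the TPM were 37.9, 16.5, 23.7 and 21.9 in Gpihbp1-/- 1, 2, 3 and 4, against 13.1, 39.5, 31.6 and 13.2 in WT 2, 4, 5 and 6. Its difference on that scale was 0.13 (exact permutation p = 0.857), of opposite sign to that in CPM.

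**Figure D4:**
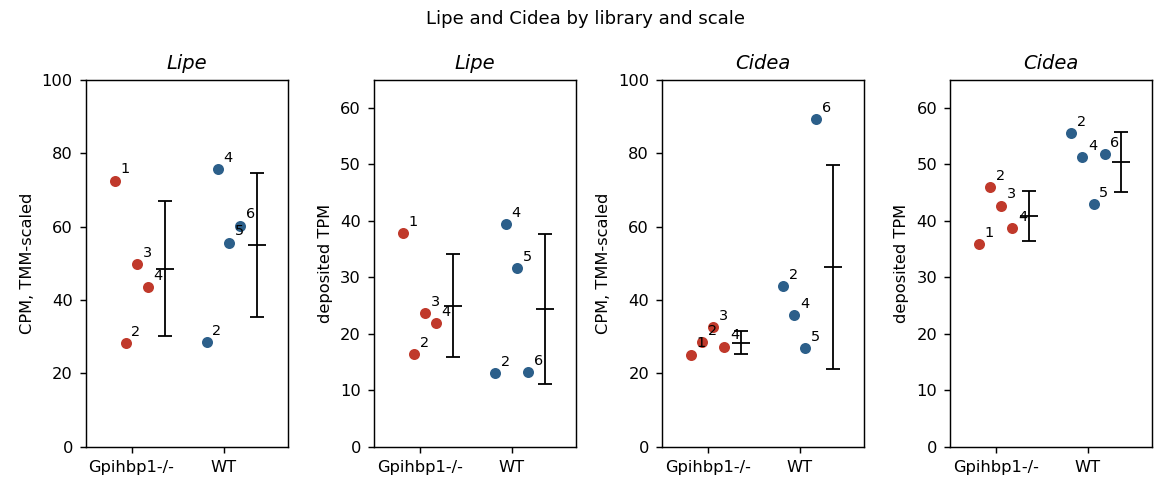
Lipe and Cidea in each library as TMM-scaled CPM and as deposited TPM, with Gpihbp1-/- (red) left of WT (blue); points carry the mouse number, and bars beside them are the mean ± SD of 4 libraries. Cidea in WT 6 is at 89.4 CPM, above the other 3 WT hearts, but at 51.9 TPM, among them.

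In the test across all genes, 0 of the 2 markers tested passed an adjusted p of 0.05 in edgeR's quasi-likelihood test, against 4 of 12826 genes, or 0.0312%. At an unadjusted p under 0.05 the counts were 0 of 2 in edgeR and 1 of 2 in DESeq2, which called 0 of 2 after adjustment. The 1 gene was Cidea, with an unadjusted DESeq2 p of 0.0383. Over all genes tested, 116 were under 0.05 unadjusted in edgeR, or 0.904%. In DESeq2 224 of 12826 were, and 8 passed after adjustment. The median log2 fold change of the 2 markers was -0.48, beside -0.02 over all genes tested.

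The balance of the 2 markers varied from heart to heart in both groups. In TPM, the ratio of Cidea to Lipe was 0.948, 2.79, 1.80 and 1.77 in Gpihbp1-/- 1, 2, 3 and 4, against 4.23, 1.30, 1.36 and 3.93 in WT 2, 4, 5 and 6. The high ratios were in hearts that stood apart on other lists, Gpihbp1-/- 2, WT 2 and WT 6.

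Other genes known from adipocytes, not all of them restricted to these cells, were in part well read and in part close to 0. Of 12, 11 were listed, 7 were tested and 0 passed in edgeR or DESeq2, with 0 also under an unadjusted p of 0.05 by either tool. The 3 with most reads were Thrsp, a regulator of lipogenesis, Aqp7, a glycerol channel that heart muscle also uses, and Sncg, gamma-synuclein. Thrsp averaged 36.5 CPM and had a log2 fold change of -0.10 ± 0.48 (SE). Aqp7 averaged 32.5 CPM and had -0.40 ± 0.72 (SE), with 8.73 and 6.06 CPM in Gpihbp1-/- 2 and WT 2 and 19.96 CPM or more elsewhere. In TPM, WT 6 was low for Aqp7 as well, at 5.55, beside 8.35 in Gpihbp1-/- 2 and 4.15 in WT 2. The remaining libraries had 20.06 TPM or more. Sncg averaged 12.6 CPM and had -0.68 ± 0.54 (SE). All 7 tested members had a negative log2 fold change with a median of -0.40, where 6780 of 12826 genes were negative. Among them Pnpla3, picked out after its value was seen, had almost no difference, at -0.0007 ± 0.43 (SE). With total-count scaling 5 were negative and 2 positive. When 1 library was left out, the median ran from -0.76 without WT 2 (7 negative) to -0.13 without WT 6 (6 negative). Without WT 4, 5 were negative.

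Some members of that list were close to 0. The beta-3 adrenergic receptor Adrb3 stood at 0, 0.263, 0 and 0 CPM in Gpihbp1-/- 1, 2, 3 and 4, against 0.418, 0.0950, 0.175 and 0.141 CPM in WT 2, 4, 5 and 6. Lgals12, a galectin of fat droplets, had at most 0.0942 CPM in a Gpihbp1-/- heart and 0 in every WT heart. Carbonic anhydrase 3, Car3, an abundant protein of white fat, had at most 0.294 CPM in the Gpihbp1-/- hearts, against 0, 0.0950, 0 and 0.984 CPM in WT 2, 4, 5 and 6, where WT 6 was again the highest. Adig, a small adipocyte protein known as adipogenin, was read in all 8 libraries and was tested (log2 fold change -0.80 ± 0.80, SE). It stood at 1.06, 0.131, 1.27 and 2.17 CPM in Gpihbp1-/- 1, 2, 3 and 4, against 0.488, 1.43, 1.75 and 4.50 CPM in WT 2, 4, 5 and 6. These 4 were singled out after their values were seen.

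Genes of lipid synthesis and storage that other cells use too were plentiful. All 20 were listed, 19 were tested and 0 passed in edgeR or DESeq2, with 12 negative and 7 positive log2 fold changes and a median of -0.18. Lpl, Cd36 and Fabp4, the lipase of the capillary wall, a fatty acid transporter and a fatty acid carrier, had the most reads, at averages of 4137, 1329 and 705 CPM. The summed level of the list ran from 3953 to 9170 CPM in the Gpihbp1-/- hearts and from 4668 to 10870 CPM in the WT hearts. In CPM it was lowest in Gpihbp1-/- 2 and WT 2. The place of WT 6, the heart with 38 reads of the sparse markers, depended on the scale. Its sum was 9379 CPM, above every library but WT 5. In TPM its sum was the lowest, at 2932, beside 2936 in WT 2 and 3279 in Gpihbp1-/- 2. Pparg, the master regulator of fat cell differentiation, was at 11.5 to 21.1 CPM in the Gpihbp1-/- hearts and 10.3 to 26.04 CPM in the WT hearts, and was singled out after its values were seen.

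Genes of brown adipocytes were read at widely differing levels. Of 15, 14 were listed, 11 tested and 0 passed in either tool. The 3 with most reads were Cox7a1 and Cox8b, muscle-type subunits of cytochrome oxidase that heart and brown fat share, and the potassium channel Kcnk3. Cox7a1 stood at 833, 234, 828 and 758 CPM in Gpihbp1-/- 1, 2, 3 and 4, against 540, 931, 555 and 3235 CPM in WT 2, 4, 5 and 6. Gpihbp1-/- 2 was the lowest and WT 6 the highest, for Cox8b too, at 184.5 and 2886 CPM. Members with few reads did not all follow 1 pattern. Elovl3, Otop1 and Slc27a2 were at 0.131 CPM or less in every library. Dio2, the deiodinase that activates thyroid hormone, stood at 1.86, 2.17, 1.08 and 1.22 CPM in Gpihbp1-/- 1, 2, 3 and 4. In WT 2, 4, 5 and 6 it stood at 2.65, 1.43, 0.961 and 5.34 CPM. WT 6 was highest for Dio2 in CPM, but WT 2 and WT 6 had 38 reads each. In TPM, Dio2 stood at 0.47 in WT 6, below 0.52 in Gpihbp1-/- 2 and 0.5 in WT 2. Ebf2, a transcription factor of brown fat precursors, was read in every heart, at 6.76 to 10.9 CPM in the Gpihbp1-/- hearts and 2.67 to 8.82 CPM in the WT hearts, lowest in WT 6. These 5 were singled out after their values were seen, and Zic1 was not analysed here. The whole list summed to 6921 CPM in WT 6, where Ucp1 was at 0, and to at most 2005 CPM elsewhere. In TPM, WT 6 was also the highest but by less, at 24480 against 17520 in WT 4.

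Adipocyte precursor genes, which mark fibroblast-like cells of many tissues, were read in every heart. All 8 were listed, 7 tested and 0 passed in either tool, with 5 negative and 2 positive. Cd34, Pi16 and Pdgfra had the most reads, and the list summed to 426, 353, 346 and 380 CPM in Gpihbp1-/- 1, 2, 3 and 4, against 535, 366, 335 and 391 CPM in WT 2, 4, 5 and 6. WT 6 lay inside the range of the other libraries here in CPM. In TPM it was the lowest library, at 93.3, with Gpihbp1-/- 3 next at 178.4. Mesothelial and epicardial markers, which line the sac and the heart's surface, were not high in WT 6 either, at 13.9 CPM, the lowest of all 8. Of the 11, Aldh1a2 stood at 122 CPM in Gpihbp1-/- 2 and 209 CPM in WT 2, against 8.17 CPM or less elsewhere, and Wt1 and Tbx18 were the next in level. Mesothelin, Msln, stood at 0.354, 0.0656, 0 and 0.565 CPM in Gpihbp1-/- 1, 2, 3 and 4, against 0, 0.570, 0 and 0 CPM in WT 2, 4, 5 and 6, and Upk3b, Upk1b, Lrrn4 and Muc16 were at 0.265 CPM or less in every library.

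Genes whose pattern over the 8 libraries was most like that of Adipoq, by Pearson r of log2 CPM, included Tmem134, Mien1, Phf7, Mbd3, Eif3f, Mtln and Psmg2, with r from 0.981 to 0.989 among 12677 genes. With 5 reads of Adipoq in all, this order largely ranked genes by how far WT 6 stood above the rest, and the points share the scaling of their library. Over the 7 libraries without WT 6 the pattern rested on 1 read in WT 2, and the closest genes were Dpt, Fdps, Septin6, Scd1, Fads1, H2-DMb2, Nbl1 and Klrb1b, with r from 0.95 to 0.982. No gene appeared in both lists. For the well-read markers, in a description added after the data were seen, Lipe was most like Cngb1, Elac1 and Amigo2, with r of 0.996, 0.988 and 0.986. Cidea was most like Nsmce1, Dgat1 and Jtb, with r of 0.988, 0.982 and 0.981.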

How the data were processed

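RNA of 8 mouse hearts was measured. Per the labels' protocols, poly(A)-selected, strand-specific (dUTP) libraries were sequenced from both ends on the DNBSEQ platform; 1 protocol paragraph names rat tissue, while every sample's organism is mouse. HISAT, Bowtie2 and build GRCm39 are named, per the submitters' processing notes; the program used for counting is not stated in them. Per the file headers, the authors deposited expected counts (estimated read counts) and TPM per gene and library; 16 other per-sample columns, 8 of them empty, were not used. Between 4.32% and 5.89% of a library's counts were not whole.

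Counts were rounded, filtered with filterByExpr (minimum count 10, minimum total 15; 12826 genes kept), scaled by TMM and tested with edgeR 4.0.16 (robust quasi-likelihood, no covariate, Benjamini-Hochberg over all genes) in R 4.3.3; the biological coefficient of variation was 43.7%. CPM use TMM-scaled library sizes, and intervals of fold changes come from the quasi-likelihood standard errors. The fit was tested on simulated data. TPM were used for levels between genes and in 1 permutation test. Alternatives were DESeq2 1.42.0, other scalings and filters, the mouse number as a block, and libraries left out. No 2 libraries agreed within sampling noise (chi-square per degree of freedom at least 7.59). Nothing in the labels says whether hearts shared a litter or day, so p-values reflect only how these 8 hearts varied. Mouse numbers 2 and 4 occur in both groups and are not said to pair the mice. No mitochondrially encoded gene was listed.

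The members and lists were chosen with earlier results of these data known. Named genes were the 10 markers, Gpihbp1, the 3 genes with most reads of each other list and any that passed, and the 8 most like Adipoq, predicted gene names left out, of which 1 is not reported here; others are said to have been chosen after their values were seen or serve as examples of their list.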

Additional observations from a re-analysis of the deposited data

Results flagged for a closer look

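Libraries that stood apart from the other 3 of their group, by the gap to the nearest of them, are given with their values. Chance marks about 1 in 20 groups in this way, and where the other 3 libraries are at 0 a single read is enough. Single reads or a few set apart Gpihbp1-/- 1 for Cfd (0.265 CPM, 3 reads) and Cidec (0.0884 CPM, 1 read), Gpihbp1-/- 2 for Retn and Ucp1 (0.0656 CPM each, 1 read), Gpihbp1-/- 4 for Lep (0.0942 CPM, 1 read) and WT 4 for Ucp1 (0.0950 CPM, 1 read).

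Gpihbp1-/- 2 was the low library of its group for the other brown fat genes (736 CPM) and the ventricular genes (6006 CPM), and the high one for mesothelial (152 CPM), atrial (4511 CPM), lung (9.975 CPM), fast skeletal muscle (10.8 CPM) and fibrotic remodelling genes (8576 CPM). WT 2 was the high library of its group for mesothelial (234.5 CPM), lung (23.9 CPM) and fibrotic remodelling genes (6759 CPM).

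WT 6 was the high library of its group for Adipoq (0.562 CPM), Cfd (1.97 CPM), Retn (1.265 CPM), Plin1 (0.422 CPM) and Cidec (0.984 CPM), and for the sum of the 8 markers other than Lipe and Cidea (5.34 CPM). It was also the high library for the other brown fat genes (6921 CPM), the red cell genes (12290 CPM) and the hepatocyte genes (1.55 CPM, 11 reads).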

How the results depend on the processing

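The count of adipocyte markers past the threshold was 0 in every alternative run, as was that of the other lists' members. Over all genes the count was 4, and it was 8 with DESeq2, 1 with at least 10 counts required in every library, 2 to 3 when 1 library was left out and 168 with the mouse number as a replicate block. That block leaves 1 residual degree of freedom; deviations of same-numbered hearts correlated at 0.908 for number 2 and 0.110 for number 4, and with 2 shared numbers the pairing could not be established. Under the block Lipe had a log2 fold change of -0.41 and Cidea -0.51 (edgeR adjusted p = 0.640 and 0.499).

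Lipe changed sign on the deposited TPM scale, at 0.134, and when Gpihbp1-/- 2 (0.0091) or WT 4 (0.023) was left out, within a range of -0.44 to 0.023 over the 8 fits; the cause was not tested. Cidea stayed negative in all alternatives, from -0.98 without WT 5 to -0.34 without WT 6 when 1 library was left out, and was -0.14 without WT 2, WT 6 and Gpihbp1-/- 2. Its edgeR or DESeq2 adjusted p was at least 0.499 throughout. Depth limits the 8 sparse markers: 3 reads correspond to 0.197 to 0.422 CPM per library.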

Other observations

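Some values of the 2 hearts high in fibrotic genes belong to no comparison of adipocyte markers. Krt18, a keratin of simple epithelia and mesothelium, stood at 10.2 CPM in Gpihbp1-/- 2 and 10.6 CPM in WT 2, and at 0.984 CPM or less in the other 6 libraries. Napsa, an aspartic protease of lung epithelium and kidney, stood at 8.86 CPM in Gpihbp1-/- 2 and 22.7 CPM in WT 2, and at 1.27 CPM or less elsewhere. Cebpa, an adipogenic transcription factor that myeloid cells also use, stood at 28.3 CPM in Gpihbp1-/- 2 and 43.1 CPM in WT 2, and at 9.08 CPM or less elsewhere, while Adipoq had 0 and 1 reads and Cidec 0 reads in those 2 hearts. These genes were picked out after their values were seen.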
